A study of Mus musculus with 4 samples.

Results

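The genes of fatty acid uptake, beta-oxidation and the peroxisome were followed in mouse embryonic stem cells deleted for the microRNA cluster miR-290 to miR-295. The set holds 38 genes, taken as the rows of the count table whose GENCODE vM21 symbol is on a fixed list, out of 55421 gene identifiers in all. All 38 were in the table, and 36 of them were among the 14427 genes with enough counts to be tested. Levels are counts scaled to the library total (CPM). KO stands for libraries of cells carrying the cluster deletion (n = 2) and WT for libraries of wild-type cells (n = 2). Both genotypes are embryonic stem cells of the E14 line, of 129/Ola background and blastocyst origin, cultured on gelatin in serum with LIF, and no treatment is named. The design text speaks of biological duplicates, but no label states if 1 clone or several gave the KO libraries. The p-values therefore reflect only how much these 4 libraries vary, which may be technical.

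Long-chain fatty acids enter a cell with the help of fatty acid transport proteins and are tied to coenzyme A by acyl-CoA synthetases. The carnitine shuttle carries the acyl group into the mitochondrion, where repeated cycles of dehydrogenation, hydration, dehydrogenation and thiolysis shorten the chain. Very long and branched chains are first shortened in the peroxisome, an organelle whose enzymes are imported from the cytosol by proteins called peroxins. PPAR alpha, a nuclear receptor that senses fatty acids, is the best known activator of these genes in liver.

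Libraries were made from poly(A) RNA with a 3' tag kit, so that a transcript gives reads near its 3' end and a count does not grow with transcript length. They held between 9925557 and 12726123 counts. The 7 plus-strand microRNA genes of the deleted cluster held 88 and 39 counts in WT libraries 1 and 2 and 0 in both KO libraries, as the labels require. The 10 stem cell markers summed to 3840 to 3950 CPM in KO and 3820 to 4220 in WT, and 3 of them were called, Klf4 (log2 fold change -1.59) and Utf1 (-0.91) lower and Fgf4 (0.80) higher. Markers of other cell types moved between the groups as well. Of 15 primitive endoderm markers 10 were lower in KO and 0 higher, with a median log2 fold change of -2.69 over the list. Dab2, for example, was at 1.57 and 1.02 CPM in KO and 28.5 and 26.3 in WT. The list summed to 651 to 813 CPM in KO and 796 to 1070 in WT, and its most abundant markers, Sparc and Lamc1, were not called. Of 8 fibroblast or feeder markers 5 were tested and 3 were lower (summed 18.4 to 29.7 CPM in KO, 45.5 to 69.4 in WT), and Col3a1 and Postn held 0 counts in every library. The trophoblast list summed to 240 to 388 CPM in KO and 99.1 to 101 in WT. Nearly all of it was Tfap2c, the only called marker of 3 tested, while Cdx2, Elf5 and Gata3 held too few counts to be tested. The 2-cell-like list summed to 8.57 to 14.4 CPM in KO and 2.12 to 3.12 in WT, with 2 of 4 tested markers higher. The part of these cells in the results below was not tested, and in bulk RNA fewer cells of a type and less RNA per cell cannot be told apart.

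The deleted microRNAs are shown because matches to the seed of miR-291a-3p, miR-294-3p and miR-295-3p are looked for in the set below. These mature 3p strands (RefSeq, GRCm38.p6, chromosome 7, plus strand) are written with the seed, bases 2 to 8, in capitals. The first 3 share all of it, miR-290a-3p and miR-291b-3p share bases 2 to 7, and miR-293-3p has another seed. miR-292a-3p belongs to the cluster as well.
miR-291a-3p: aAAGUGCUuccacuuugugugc
miR-294-3p: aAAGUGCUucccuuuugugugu
miR-295-3p: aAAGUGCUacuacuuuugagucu
miR-290a-3p: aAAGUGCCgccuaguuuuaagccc
miR-291b-3p: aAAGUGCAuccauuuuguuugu
miR-293-3p: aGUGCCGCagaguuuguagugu

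Of the 36 tested genes, 4 rose and 2 fell in KO at an adjusted p below 0.05 (edgeR quasi-likelihood test, Benjamini-Hochberg over all 14427 genes). The higher genes were the transporter Slc27a2, the acyl-CoA synthetase Acsl5, the enoyl-CoA isomerase Eci2 and the peroxin Pex19. The lower genes were the mitochondrial thiolase Acaa2 and the peroxisome division factor Pex11a. These shares, 11.1% and 5.56%, stand beside 7.42% higher and 4.96% lower among all tested genes, so the set as a whole was called at shares near the background. The median log2 fold change of the set was 0.17, against -0.01 for all tested genes. Both KO libraries lay above both WT libraries for 16 genes of the set (44.4%, against 29.2% of all tested genes) and below them for 5 (13.9%, against 28.8%). Leaving out 1 library leaves 1 in its group. The number of genes called in the set then changed with the library left out, as did the number among all tested genes.

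The summed level of the whole set was 1740 and 1650 CPM in KO libraries 1 and 2 and 1350 and 1660 CPM in WT libraries 1 and 2. WT library 1 was the lowest, and the KO libraries overlapped with WT library 2. The 30 uncalled genes had log2 fold changes between -0.55 and 0.70, with standard errors of 0.16 to 0.55, and for none did the estimate pass 1 log2 unit in either direction. Counts of the tested genes ranged from 17 to 2665 per library. The higher library of a group exceeded the lower by a median of 1.14-fold in KO and 1.27-fold in WT.

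**Figure D1:**
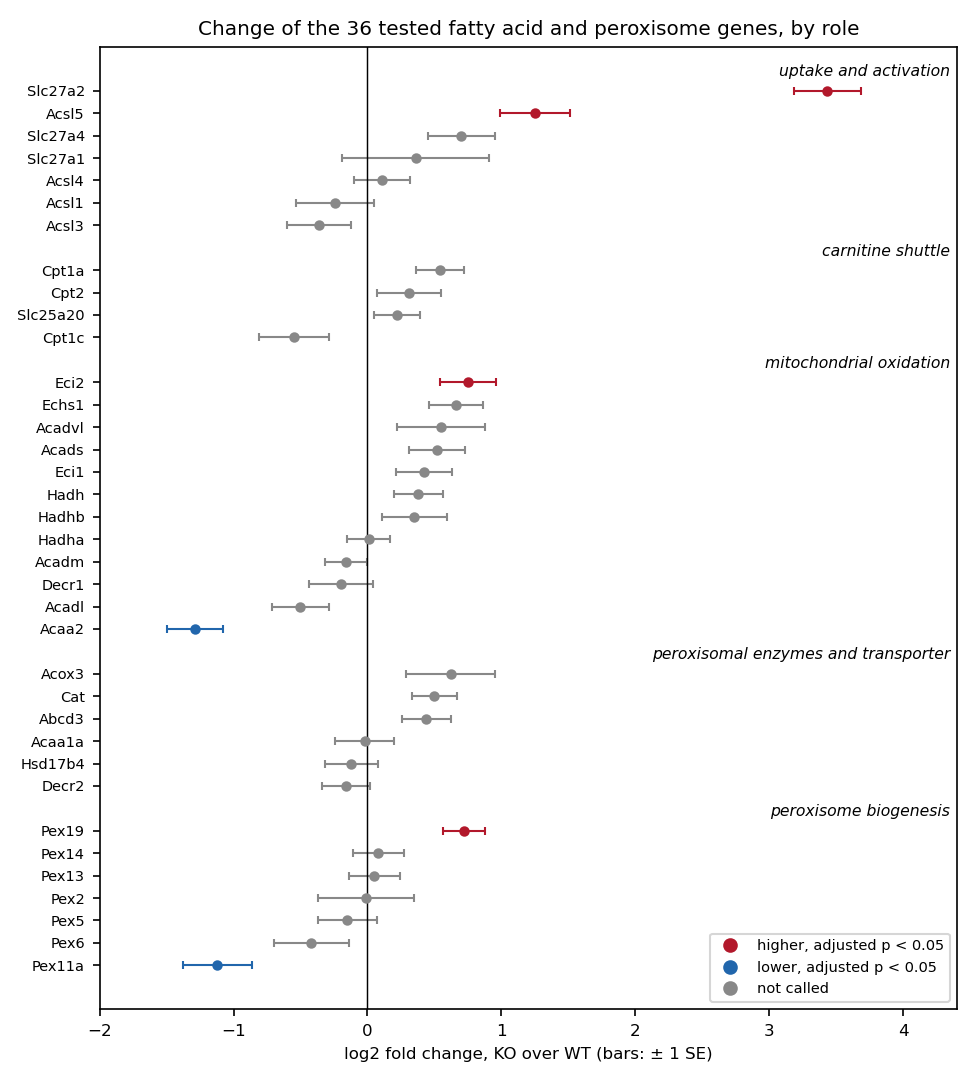
Log2 fold change of KO over WT (horizontal axis) for each of the 36 tested genes, grouped by role, with bars of 1 standard error and colours for genes that were higher, lower or not called. Slc27a2 stands at 3.43, and the uncalled genes lie between -0.55 and 0.70.

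**Figure D2:**
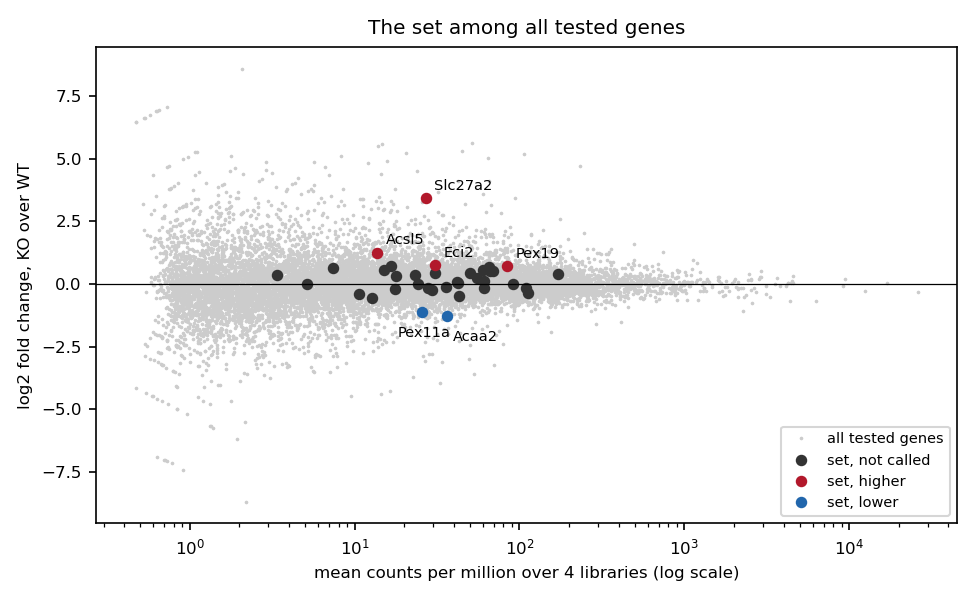
Log2 fold change of KO over WT (vertical axis) against mean CPM over the 4 libraries (horizontal log axis) for all 14427 tested genes in grey and for the 36 genes of the set as large points. The set lies within the range of the other genes, with Slc27a2, at 3.43, its highest gene and Acaa2, at -1.29, its lowest.

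Uptake and activation held the largest change. Slc27a2 encodes a fatty acid transport protein that is also a very-long-chain acyl-CoA synthetase, abundant in liver and kidney. Its RNA (ENSMUSG00000027359, chromosome 2, 126552407 to 126588243, plus strand, GRCm38) was at 44.9 and 54.4 CPM in KO libraries 1 and 2 and at 5.10 and 4.03 CPM in WT libraries 1 and 2. The lower KO library was far above the higher WT library, and Slc27a2 rose 10.8-fold (log2 fold change 3.43, SE 0.25, edgeR adjusted p = 0.000192). The call held with any 1 library left out (3.26 to 3.64). Acsl5, a long-chain acyl-CoA synthetase found on mitochondria and the endoplasmic reticulum, was at 20.4 and 18.3 CPM in KO and 7.15 and 9.17 in WT. The groups did not overlap, and Acsl5 (ENSMUSG00000024981, chromosome 19, 55251938 to 55297720, plus strand) rose 2.38-fold (log2 fold change 1.25, SE 0.26, edgeR adjusted p = 0.0172). Without KO library 1 its log2 fold change was 1.18 with an edgeR adjusted p of 0.0913. The 3' end of Acsl5 lies within the minus-strand gene Zdhhc6, which gave a log2 fold change of -0.29 (SE 0.19, edgeR adjusted p = 0.36), and whether counting used the strand is not given in the sources used here.

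The other 5 genes of this role were not called. Slc27a4, the main transporter of the intestine, was at 20.2 and 21.0 CPM in KO and 14.3 and 11 in WT, a log2 fold change of 0.70 (SE 0.25, edgeR adjusted p = 0.101). Its groups did not overlap, and it passed without WT library 1 (0.92, edgeR adjusted p = 0.0359). Slc27a1, the transporter known from muscle and fat, was at 4.01 and 3.57 CPM in KO and 1.40 and 4.63 in WT. Its WT libraries differed 3.32-fold, the widest gap between the WT libraries of any tested gene of the set. Acsl3, which activates fatty acids for lipid droplets, was at 109 and 88.7 CPM in KO and 92.2 and 163 in WT. WT library 2 was the highest of the 4, and the log2 fold change of -0.36 (SE 0.24, edgeR adjusted p = 0.37) became -0.71 without WT library 1 (edgeR adjusted p = 0.0133) and 0.08 without WT library 2. Acsl1 and Acsl4, which prefer common long-chain acids and arachidonic acid, gave -0.24 (SE 0.29) and 0.11 (SE 0.21) with overlapping groups.

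In terms of 3' tags, Slc27a2 made up 65.0% and 68.9% of the tags of the set's 3 Slc27 genes in KO libraries 1 and 2. In WT libraries 1 and 2 its share was 24.5% and 20.5%. Slc27a4 held 29.2% and 26.6% in KO and 68.8% and 55.9% in WT. The summed level of the set's 3 genes was 69.1 and 79.0 CPM in KO and 20.8 and 19.6 CPM in WT. Slc27a3, outside the set and so outside these shares and sums, was at 8.64 and 10.6 CPM in KO and 11.3 and 12.3 in WT. For the set's 4 acyl-CoA synthetases the sums overlapped, at 238 and 179 CPM in KO and 181 and 273 in WT. Acsl5 made up 8.54% and 10.2% of their tags in KO and 3.95% and 3.36% in WT. Acsl6, also outside the set, was at 3.3 and 3.31 CPM in KO and 3.37 and 10.8 in WT.

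**Figure D3:**
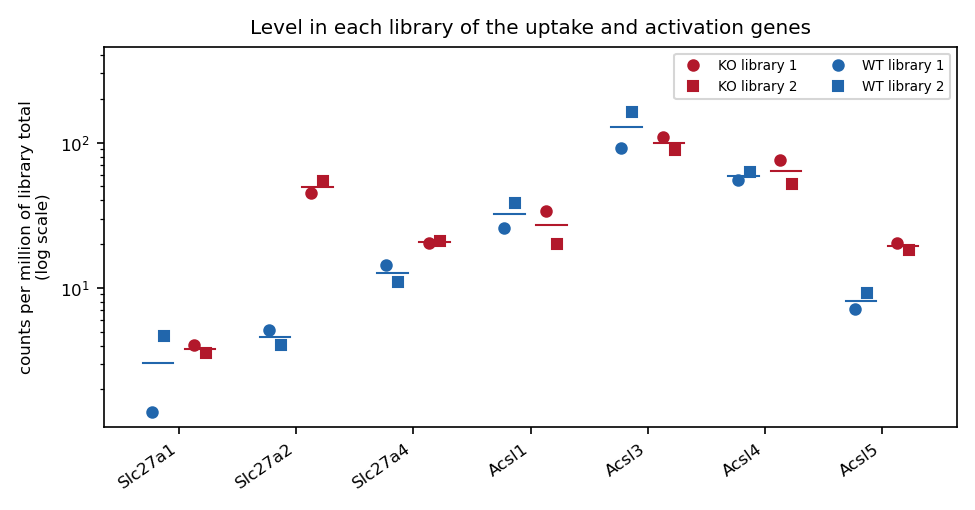
Level of the 7 uptake and activation genes in each library in CPM (vertical log axis), with WT in blue, KO in red, circles for library 1, squares for library 2 and a line at each group mean. Slc27a2 was at 44.9 and 54.4 CPM in KO and 5.10 and 4.03 in WT, and the groups did not overlap for Slc27a2, Slc27a4 and Acsl5.

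The promoter of Slc27a2 is printed because this gene changed most, and that of Pex11a because it is a lower gene with an entry in the same table. Both are RefSeq windows (GRCm38.p6) from 250 bases before to 50 after the start that RefSeq annotates, which for Slc27a2 lies downstream of the GENCODE gene start given above. Capitals mark AGGTCA, the half-site read by PPAR, HNF4 and other nuclear receptors, searched on both strands, so that it appears as TGACCT when it lies on the other one. The Slc27a2 window (chr2:126552774-126553073, plus strand) holds 1 half-site and the Pex11a window (chr7:79743082-79743381, minus strand) holds 0.
Slc27a2: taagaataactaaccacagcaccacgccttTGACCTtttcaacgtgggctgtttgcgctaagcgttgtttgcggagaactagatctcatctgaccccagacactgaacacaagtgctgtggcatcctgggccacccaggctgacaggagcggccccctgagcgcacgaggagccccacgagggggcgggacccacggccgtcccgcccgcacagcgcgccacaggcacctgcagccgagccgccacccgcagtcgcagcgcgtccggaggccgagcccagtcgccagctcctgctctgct
Pex11a: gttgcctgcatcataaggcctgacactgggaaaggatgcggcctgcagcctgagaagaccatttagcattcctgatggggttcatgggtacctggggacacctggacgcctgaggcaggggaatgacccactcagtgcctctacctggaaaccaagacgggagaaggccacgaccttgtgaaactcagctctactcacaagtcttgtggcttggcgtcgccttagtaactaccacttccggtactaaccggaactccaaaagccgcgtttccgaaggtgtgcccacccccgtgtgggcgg

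Of the 33 genes of the set with a window in that table, 7 held the half-site, namely Slc27a2, Acadm, Acadvl, Cat, Cpt1a, Cpt1c and Echs1, of which only Slc27a2 was called. The half-site stood in 18.1% of 27025 genes of the table. The full direct repeat AGGTCANAGGTCA, the classical PPAR element, was in 0 of the 33 and in 0.0481% of all genes.

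The carnitine shuttle had 0 of 4 genes called by edgeR and 0 by DESeq2 at an adjusted p below 0.05. In edgeR 1 of the 4 had an unadjusted p below 0.05, as did 4069 of all 14427 tested genes. Cpt1a, the outer-membrane carnitine palmitoyltransferase that sets the rate of mitochondrial entry, was at 69.3 and 73.9 CPM in KO and 42.9 and 55.8 in WT. Both KO libraries were higher, with a log2 fold change of 0.54 (SE 0.18, edgeR adjusted p = 0.0859), and Cpt1a passed without WT library 2 (0.72, edgeR adjusted p = 0.0165). Cpt1c, the form of neurons, which has little transferase activity, was at 10.8 and 9.86 CPM in KO and 16.3 and 14.1 in WT. That is a non-overlapping difference in the opposite direction, with a log2 fold change of -0.55 (SE 0.26, edgeR adjusted p = 0.203). Cpt2, which returns the acyl group to coenzyme A inside the mitochondrion, gave 0.31 (SE 0.24), and the carnitine carrier Slc25a20 gave 0.22 (SE 0.17).

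In the mitochondrial cycle 1 of 12 genes was higher and 1 lower (8.33% each), beside 7.42% higher and 4.96% lower among all tested genes. Acaa2, the thiolase that cleaves acetyl-CoA from medium chains, was at 18.9 and 23.0 CPM in KO and 46.1 and 56.6 in WT. Both KO libraries were well below both WT libraries, and Acaa2 (ENSMUSG00000036880, chromosome 18, 74779197 to 74806208, plus strand) fell 2.44-fold (log2 fold change -1.29, SE 0.21, edgeR adjusted p = 0.00569). This call also held with any 1 library left out (-1.43 to -1.14). Eci2, an isomerase that moves double bonds of unsaturated chains into the position the cycle needs, in mitochondria and peroxisomes, was at 37.2 and 39.7 CPM in KO and 20.2 and 25.8 in WT. Its groups did not overlap, and Eci2 (ENSMUSG00000021417, chromosome 13, 34977748 to 35027096, minus strand) rose 1.68-fold (log2 fold change 0.75, SE 0.21, edgeR adjusted p = 0.0451). Among the 6 calls in the set this one was nearest the threshold. It passed without WT library 2 (0.91, edgeR adjusted p = 0.0114). It failed on leaving out KO library 1 (0.80, edgeR adjusted p = 0.172), KO library 2 (0.70, edgeR adjusted p = 0.254) or WT library 1 (0.59, edgeR adjusted p = 0.0828). Eci3 is a close paralog, so reads could have been split between them.

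Next to them stood Echs1 and Acads, the uncalled genes of the cycle with the smallest p. Echs1, the enoyl-CoA hydratase of the second step, was at 85.1 and 73.8 CPM in KO and 41.5 and 59.4 in WT (log2 fold change 0.66, SE 0.20, edgeR adjusted p = 0.0628). Acads, the dehydrogenase for short chains, was at 74.2 and 87.5 CPM in KO and 45.5 and 67.5 in WT (log2 fold change 0.52, SE 0.21, edgeR adjusted p = 0.136). In both the groups did not overlap and WT library 1 was the lowest. Without WT library 2 they passed with 0.92 and 0.81, as did the 3-hydroxyacyl-CoA dehydrogenase Hadh, with 0.61 against 0.38 in all libraries (edgeR adjusted p = 0.0219 against 0.199).

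The 4 acyl-CoA dehydrogenases of the first step, which differ in the chain length they take, did not go one way. Acadvl for very long chains gave 0.55 (SE 0.33) with overlapping groups, and its 3' end overlaps that of Dvl2 on the other strand. Acadl for long chains gave -0.50 (SE 0.21), with 31.7 and 39.8 CPM in KO and 43.2 and 58.1 in WT, and passed as lower without WT library 1 (-0.68, edgeR adjusted p = 0.0376). Acadm for medium chains gave -0.16 (SE 0.16). The subunits of the trifunctional protein, which carries out the later steps for long chains, gave 0.01 (Hadha, SE 0.16) and 0.35 (Hadhb, SE 0.24), and the 3' end of Hadha overlaps Garem2 on the other strand. Eci1, the mitochondrial relative of Eci2, gave 0.42 (SE 0.21), and the dienoyl-CoA reductase Decr1 gave -0.20 (SE 0.24).

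Among peroxisomal enzymes and the membrane transporter, 0 of 6 tested genes were called by edgeR and 0 by DESeq2 at an adjusted p below 0.05. In edgeR 2 of the 6 had an unadjusted p below 0.05, as did 4069 of all 14427 tested genes. Cat, the catalase that breaks down the hydrogen peroxide made by peroxisomal oxidation, was at 75.5 and 80.3 CPM in KO and 49.6 and 60.9 in WT. The groups did not overlap, with a log2 fold change of 0.50 (SE 0.17, edgeR adjusted p = 0.0912), and Cat passed without WT library 2 (0.63, edgeR adjusted p = 0.0282). Abcd3, an ABC transporter of the peroxisomal membrane, was at 60.8 and 55.1 CPM in KO and 40.1 and 45.5 in WT, again without overlap (0.44, SE 0.18, edgeR adjusted p = 0.139). Acox3, an oxidase for branched chains, gave 0.62 (SE 0.33). The bifunctional enzyme Hsd17b4 (-0.12, SE 0.20), the thiolase Acaa1a (-0.02, SE 0.22) and the dienoyl-CoA reductase Decr2 (-0.16, SE 0.18) had overlapping groups. Acaa1a has a close paralog, Acaa1b, so reads of these genes could have been split between them. Ehhadh, the other bifunctional enzyme, held 11 and 1 counts in KO and 8 and 3 in WT and was not tested.

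Peroxisome biogenesis had 1 of 7 genes higher and 1 lower (14.3% each), beside 7.42% and 4.96% of all tested genes. With so few genes 1 call is a large share. Pex19, the chaperone that brings membrane proteins to the peroxisome, was at 105 and 103 CPM in KO and 58.0 and 68.9 in WT. The KO libraries were nearly equal and both above WT, and Pex19 (ENSMUSG00000003464, chromosome 1, 172126755 to 172136493, plus strand) rose 1.65-fold (log2 fold change 0.72, SE 0.16, edgeR adjusted p = 0.022). Without KO library 1 the value was 0.72 (edgeR adjusted p = 0.142) and without KO library 2 it was 0.74 (adjusted p = 0.126). Genes of chromosome 1 had a median log2 fold change of 0.27, and a median of -0.28 for WT library 1 over WT library 2, while Pex19 stood 0.45 above that chromosome's median. What lies behind the chromosome's median was not tested. Acsl3 and Acadl, on the same chromosome, gave -0.36 and -0.50.

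Pex11a, which elongates the peroxisomal membrane before division and is a known PPAR alpha target in liver, was at 17.1 and 15.4 CPM in KO and 27.1 and 43.6 in WT. The groups did not overlap, although the WT libraries differed 1.61-fold, and Pex11a (ENSMUSG00000030545, chromosome 7, 79735957 to 79743131, minus strand) fell 2.17-fold (log2 fold change -1.12, SE 0.26, edgeR adjusted p = 0.0229). Without KO library 1 it gave -1.18 (edgeR adjusted p = 0.0604) and without KO library 2 -1.04 (adjusted p = 0.106), and without WT library 1 or 2 it passed with -1.41 and -0.76. Of the uncalled peroxins, Pex6, an ATPase that recycles the import receptor, was at 8.41 and 9.60 CPM in KO and 10.6 and 13.6 in WT (-0.42, SE 0.28, edgeR adjusted p = 0.378). Pex5, the import receptor itself, was at 29.2 and 23.6 CPM in KO and 26.3 and 32.6 in WT, with overlap (-0.15, SE 0.22, edgeR adjusted p = 0.701). The docking proteins Pex13 and Pex14 gave 0.05 (SE 0.19) and 0.08 (SE 0.19), and the ubiquitin ligase subunit Pex2 gave -0.01 (SE 0.36).

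Ppara, the receptor itself, was close to absent from these libraries, with 1 count in each KO library and 5 and 3 counts in WT libraries 1 and 2. At this depth 3 counts correspond to 0.236 to 0.302 CPM per library, and Ppara was not tested.

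**Figure D4:**
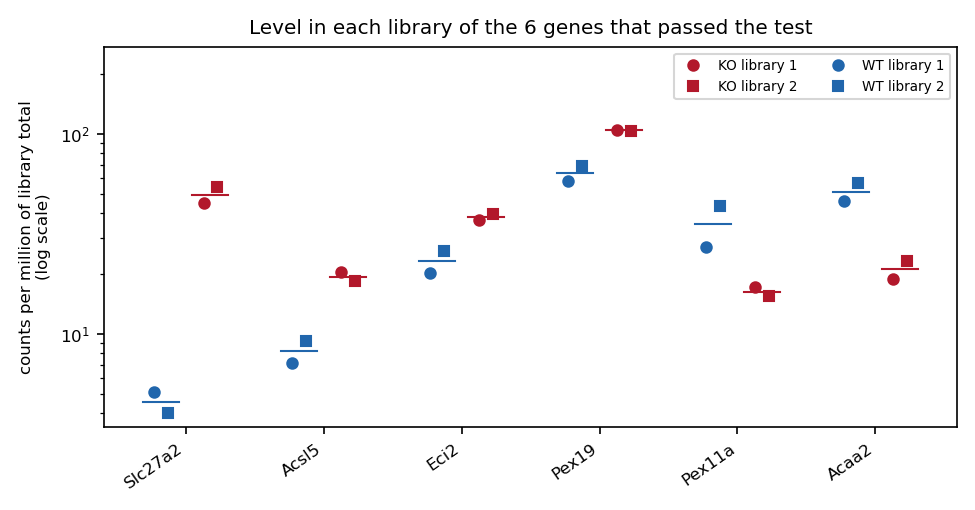
Level of the 6 called genes in each library in CPM (vertical log axis), with WT in blue, KO in red, circles for library 1, squares for library 2 and a line at each group mean. For all 6 genes the KO libraries lie on 1 side of both WT libraries, with Pex19 at 105 and 103 CPM in KO and 58.0 and 68.9 in WT.

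**Figure D5:**
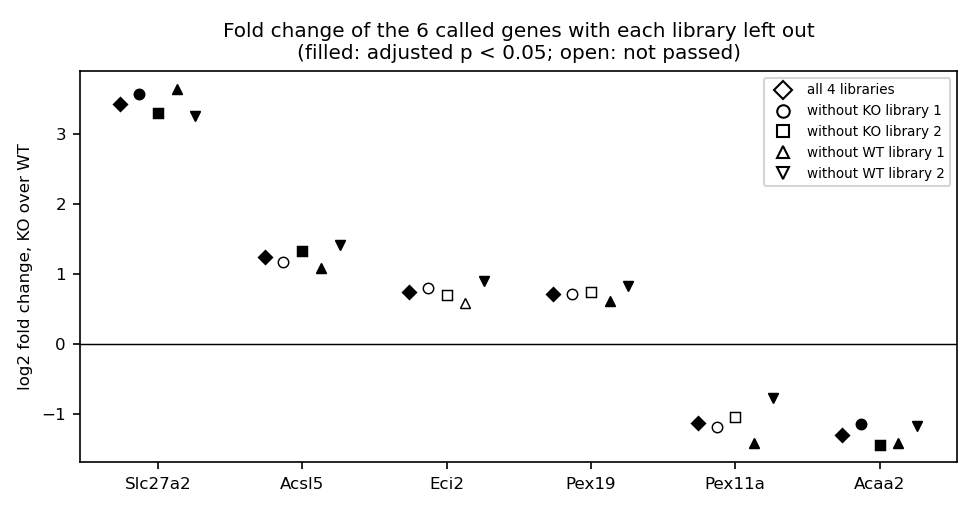
Log2 fold change of KO over WT (vertical axis) for the 6 called genes with all 4 libraries and with each library left out, where filled symbols passed at an adjusted p below 0.05 and open ones did not. Slc27a2 and Acaa2 passed in each fit, and the direction of all 6 genes was the same in each.

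Matches to the seed shared by miR-291a-3p, miR-294-3p and miR-295-3p were then listed in the longest annotated 3' UTR of each gene. Matches particular to base 8 of miR-290a-3p or miR-291b-3p, and matches to miR-293-3p, are not in the shares below. A 7-base match, AGCACTT or GCACTTA, was present in 2 of the 36 tested genes (5.56%), and in 21.8% of the 12490 tested genes with a 3' UTR. The 3' UTRs of the set were shorter, with a median of 748 bases against 1329, and among the 5053 tested genes whose 3' UTR was within the interquartile range of the set the share was 12.5%. The 8-base match AGCACTTA was in 0 of the 36 and in 3.57% of all. The 2 genes were Pex19, which rose, and Cpt1a, which was not called (log2 fold changes 0.72 and 0.54). Over all tested genes with a 7-base match the median was 0.10. The sites are printed from the GENCODE vM21 transcripts on GRCm38, in the sense of the transcript, with the match in capitals. The Cpt1a window lies at chr19:3384551-3384579, and the Pex19 windows at chr1:172134779-172134807 and chr1:172135436-172135464, all on the plus strand.
Cpt1a: gtccctaagtaAGCACTTcccccacccta
Pex19 first site: aaaggaattttGCACTTAgccatggtcgg
Pex19 second site: tcgtctccttgGCACTTAtttcagtctta

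The 6-base core GCACTT was in 7 of the 36 tested genes (19.4%), and in 34.8% of the 12490 tested genes with a 3' UTR. Outside AGCACTT and GCACTTA it was present in 5 more tested genes of the set, Acsl4, Hadha, Hadhb, Decr1 and Pex14. Their log2 fold changes ran from -0.20 to 0.35, and Ppara held the core as well. A T before the core completes the match to bases 2 to 8 of miR-291b-3p, and a G that of miR-290a-3p. Acsl4, Hadha, Hadhb and Decr1 held a core after T and Pex14 after G, which are 7-base matches too. The first Pex19 site follows T and the second G, which lengthens them to 8 bases. Such matches were not counted over all tested genes. Slc27a2, Acsl5, Eci2, Acaa2 and Pex11a held no GCACTT core in the window searched. A match is a description and not a site shown to be bound.

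The other genes of the pathway, 89 on a list of their own, gave 76 tested genes, of which 6 were higher (7.89%) and 3 lower (3.95%), near the background of 7.42% and 4.96%. These counts changed with the library left out, as did those of all tested genes. Of the 6 higher genes 4 were among the 24 tested peroxisomal enzymes and transporters (16.7%), which were themselves a large part of the 76. Of 9 tested peroxisome biogenesis genes on this list 0 were called. Phyh, the hydroxylase that starts the breakdown of phytanic acid, was at 100 and 120 CPM in KO and 40.7 and 56.8 in WT (1.18, SE 0.20, edgeR adjusted p = 0.00668). Ephx2, an epoxide hydrolase of cytosol and peroxisome, was at 84.6 and 67.0 CPM in KO and 33.3 and 22.1 in WT (1.45, SE 0.24, edgeR adjusted p = 0.00633). The calls of Phyh and Ephx2 held with any 1 library left out.

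Etfb, a subunit of the flavoprotein that takes electrons from the acyl-CoA dehydrogenases, was at 158 and 166 CPM in KO and 96.6 and 86.3 in WT (0.82, SE 0.16, edgeR adjusted p = 0.0111), and its partner Etfa gave -0.04 (SE 0.19). Leaving out KO library 2 ended the Etfb call (0.79, edgeR adjusted p = 0.0769). Pccb, a subunit of propionyl-CoA carboxylase, was at 57.2 and 62.1 CPM in KO and 31.9 and 42.0 in WT (0.70, SE 0.19, edgeR adjusted p = 0.046), and passed with 1 library left out only when that was WT library 2.

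On the lower side stood Fabp5, a fatty acid binding protein, at 3.06 and 1.53 CPM in KO and 11.3 and 13.2 in WT (-2.40, SE 0.40, edgeR adjusted p = 0.00633). Its call held with any 1 library left out. Acat1, the mitochondrial acetoacetyl-CoA thiolase, was at 16.2 and 22.3 CPM in KO and 36.1 and 46.7 in WT (-1.10, SE 0.24, edgeR adjusted p = 0.0177), and gave -0.88 without KO library 1 (adjusted p = 0.138). Hnf4a is a nuclear receptor of liver and endoderm that is also on the primitive endoderm list. It was at 0.314 and 0.255 CPM in KO and 4.69 and 1.41 in WT (-3.39, SE 0.78, edgeR adjusted p = 0.0228). The KO values are 4 and 3 counts, near the floor of 3 counts, and the WT libraries differed 3.32-fold, so the size of this change is uncertain. Leaving out KO library 1 (-3.54) or KO library 2 (-3.25) ended its call, and so did leaving out WT library 1 (-2.24). Cd36, Pparg and the coactivator Ppargc1a held 0 counts in every library.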

How the data were processed

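QuantSeq 3' FWD libraries were prepared from Trizol-extracted RNA, per the labels' protocols. The authors deposited raw counts per Ensembl gene for 4 libraries, with no normalization. The submitters' processing notes name Trim Galore and GRCm38. Not given in the sources used here are the aligner, the counter, whether counting used the strand, and which annotation release it used.

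Identifiers were matched to GENCODE vM21. KO was compared with WT in edgeR 4.0.16 (R 4.3.3) by the quasi-likelihood F test, two-sided, with TMM factors, filterByExpr and Benjamini-Hochberg adjustment over 14427 genes, and genes were called at an adjusted p below 0.05. CPM values are per library total. Standard errors are the log2 fold change over the square root of F. Values per library are given for each called gene and for the 2 uncalled genes of each role with the smallest p, and for the called genes among the other pathway genes, except those whose results are not reported here. Acadl, Slc27a1, Hadh, Etfa and the markers named with values fall outside that rule and were picked with their values in view. The genes, lists and tests were chosen with earlier results of these data known. The alternatives were DESeq2 1.42.0 size factors and test, library totals, other count filters, the replicate number as a block and each library left out. The scripts were tested on simulated data. Floors cover counting error only, while the standard errors also include the estimated variation between libraries. Seed matches, built from bases 2 to 8 of miR-294-3p, were searched in the longest 3' UTR of each gene, and promoter windows came from RefSeq. Sequences on chromosome 18 are not printed.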

Additional observations from a re-analysis of the deposited data

How the results depend on the processing

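With 2 libraries a group, many single calls depend on which libraries are used. Among all tested genes 1071 of 14427 were higher and 715 lower in the main fit. At a mean CPM of at least 10 there were 636 higher and 391 lower of 8711. Without a low-count filter 1193 of 25542 were lower. With each library left out 556 to 1477 were higher and 285 to 1011 lower. With the replicate number as a block 636 were higher and 369 lower, and in the set 2 were higher (Slc27a2, Acsl5) and 1 was lower (Acaa2). Nothing in the labels ties equal numbers together, and the within-group differences of equally numbered libraries had a correlation of -0.0277 over 8711 genes. In the set 1 to 9 genes were higher and 1 to 4 lower with a library left out. Eci2 also missed the threshold with library totals (0.74, edgeR adjusted p = 0.0517) and at a mean CPM of at least 10 (0.72, adjusted p = 0.0561), Pccb missed it with library totals as well (0.69, adjusted p = 0.0537), and Echs1 passed without a filter (0.67, adjusted p = 0.014). The DESeq2 test and DESeq2 size factors called the same 6 genes of the set. Of the other pathway genes 5 were lower with DESeq2, 6 without a filter and 1 at a mean CPM of at least 10, and with a library left out 3 to 8 were higher and 1 to 6 lower. The filters change which genes are tested and adjusted over. The cause of the other shifts was not tested.

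No called gene changed direction in any alternative. Some uncalled genes did. Hadha gave -0.0032 with DESeq2 size factors, -0.0033 with the DESeq2 test and -0.02 at a mean CPM of at least 10. With each library left out Hadha lay between -0.06 and 0.07, Slc27a1 between -0.27 and 1.41, Acsl1 between -0.67 and 0.10, Acsl3 between -0.71 and 0.08, Acsl4 between -0.18 and 0.36, Hsd17b4 between -0.29 and 0.05, Acaa1a between -0.17 and 0.15, Pex2 between -0.13 and 0.10, Pex13 between -0.04 and 0.14, and Pex14 between -0.07 and 0.23.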
